A study of Homo sapiens with 8 samples.

Results

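The 34 genes examined here build and run the melanosome, the pigment organelle of melanocytes. They were taken by name from a list of 7 roles: 3 transcription factors of the MiT family, 3 pigment enzymes, 3 structural proteins, 5 ion carriers and channels, 3 receptors, 12 proteins that assemble the organelle, and 5 transport proteins. All 34 were found among the 35238 gene symbols of the count table, and 33 had enough counts to be tested. The cells were MP38, a BAP1-mutant uveal melanoma (UM) line, so every group carried that mutation and the results stand for 1 line. They were held for 24 h in 0.1% DMSO alone (control), or in the same DMSO with romidepsin at 40 nM, with quisinostat at 40 nM, or with mivebresib at 1200 nM. The first pair of drugs blocks histone deacetylases (HDAC), which strip acetyl groups from histones, and mivebresib occupies the bromodomains of the BET proteins, which read those groups. Bulk mRNA from 2 wells per group was sequenced, so p-values measure the spread between wells. The MP41 and MP46 lines of the study were not analysed here.

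Pigment cells make melanin inside the melanosome, a relative of the lysosome. A fibrillar scaffold of PMEL is laid down first, enzymes of the tyrosinase family then make melanin on it, ion carriers and channels set the chemistry of the lumen, and small GTPases with a myosin motor move the finished organelle. MITF is the transcription factor that switches on many of these genes through a short DNA element called the M-box, and its relatives TFEB and TFE3 bind a similar element, CLEAR, in front of lysosomal genes.

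The library totals ran from 28483235 to 29359024 counts. The control libraries differed more than the other pairs, with a chi-square of 58.1 per degree of freedom against 9.52 to 9.79 in the drug groups. Of the 33 tested pigment genes, 13 differed by over 0.4 on the log2 scale between the controls. The differences ran from -0.862 (BLOC1S1, higher in the first) to 0.955 (TYR, higher in the second). The share over all genes was not counted, so this does not set the pigment genes apart. All 3 drug contrasts share these controls, so they are not independent of each other. CPM here is a gene's share of the library total after TMM scaling, times 1000000. Of 7 melanocyte markers, 6 passed 1 CPM and DCT was near 0. They summed to 1250 to 1380 CPM in the control and 1240 to 1260 with romidepsin. The sum was 842 to 911 CPM with quisinostat and 633 to 649 with mivebresib. Of 6 markers of the retinal pigment epithelium, the other pigmented layer of the eye, BEST1 alone passed 1 CPM and RLBP1 was at 0 in all libraries; their summed level was 10.7 to 13 CPM in the control, 20.6 to 21.2 with romidepsin, 15.1 to 16.2 with quisinostat and 7.17 to 8.92 with mivebresib. The 6 fibroblast markers, 1 of them above 1 CPM, summed to 1.98 to 2.48 CPM in the control, 4.23 to 5.46 with romidepsin, 8.43 to 10.9 with quisinostat and 1.28 to 1.76 with mivebresib. Of 2 immune markers, CD68 alone passed 1 CPM, at 65.8 and 83.0 in the control. The immune sum was 66 to 83.1 CPM in the control and 77.8 to 79.3 with romidepsin. It was 65.9 to 67.9 CPM with quisinostat and 61.1 to 70.3 with mivebresib. The 2 endothelial and 2 keratinocyte markers did not pass 1 CPM in any group. The part of these markers in the results was not tested.

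The DNA elements come first, since they mark which of these genes hold a MiT-family motif just in front of their start. RefSeq promoters (GRCh38.p14) were at hand for 28 of the 34 genes, and both strands of the 250 bases before the start were searched. None was at hand for PMEL, SLC45A2, RAB38, HPS1, AP3B1 and AP3D1, so these genes were not searched. The M-box letters TCATGTG stood in 6 of the 28 (21.4%), against 2.58% of the 27305 promoters in the table. The CLEAR letters TCACGTGA stood in 4 of the 28 (14.3%), against 0.89%. The E-box CATGTG, which the M-box contains, stood in 39.3% of the 28 and 9.54% of all, and the E-box CACGTG, which CLEAR contains, in 21.4% and 6.49%. The SOX letters ACAAAG were found in 7.14% of the 28 and 13.7% of all. The M-box windows are printed 5′ to 3′ on the strand of the gene with the motif in capitals, where CACATGA is the same element read on the opposite strand.
TYR (chr11:89177759-89177787, + strand): agaaaagtcagTCATGTGcttttcagagg
TYRP1 (chr9:12693229-12693257, + strand): ttggaagggaaTCATGTGctgatcaagtc
GPNMB, far match (chr7:23246641-23246669, + strand): tgagtcataagCACATGAgttgtaagagg
GPNMB, near match (chr7:23246702-23246730, + strand): cttaataccatCACATGAtcctccccgag
SLC24A5 (chr15:48120964-48120989, + strand): aggagactcctCACATGAtccagttt
GPR143, far match (chrX:9765891-9765919, - strand): gaggcccagggCACATGAtgccgccccca
GPR143, near match (chrX:9765863-9765891, - strand): agcccgcccagCACATGAcccaggcaggc
BLOC1S3 (chr19:45178612-45178640, + strand): ggttcctccatTCATGTGactcttctgca

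In the next windows the capitals mark CLEAR, which reads the same on both strands.
ATP7A (chrX:77910543-77910572, + strand): cgcgttcctttTCACGTGAccagtcgctct
HPS3 (chr3:149129596-149129625, + strand): ccggctggcgtTCACGTGAcccggcgtcat
HPS5 (chr11:18322238-18322267, - strand): ggcgtgactcgTCACGTGAtgaggaagtgc
BLOC1S1 (chr12:55716016-55716045, + strand): ggttcccaaccTCACGTGAcacagcggtca

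The M-box began 105 bases before the RefSeq start of TYR, 145 before TYRP1, 123 and 62 before GPNMB, 61 and 33 before GPR143, 161 before BLOC1S3 and 15 before SLC24A5. In GENCODE 29 the windows of TYR, GPNMB, GPR143, HPS3 and BLOC1S1 lay wholly in an exon of a coding gene, 18 bases of the SLC24A5 window did, and those of TYRP1, BLOC1S3, ATP7A and HPS5 lay outside such exons. A match describes letters, and binding was not measured.

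The genes spanned a wide range of levels in the MP38 control cells, held in DMSO alone. Levels of different genes were compared as CPM per kilobase of merged exons. TYRP1, an enzyme that works beside tyrosinase, led with 949 ± 214 CPM per kilobase (SD, n = 2), followed by GPNMB with 231 ± 62.4, PMEL with 129 ± 30.5 and the small GTPase RAB32 with 123 ± 29.98. TYRP1 stood clear of GPNMB, whereas PMEL and RAB32 did not differ beyond their spread. MITF was the 8th of the 34, at 48.7 ± 0.128. At the low end were TYR (0.863 ± 0.390), TRPM1 (0.571 ± 0.0866) and DCT (0.0118 ± 0.00986). DCT, the third enzyme of the tyrosinase family, had counts of 4 and 1 in the control, 1 and 1 with romidepsin, 2 and 2 with quisinostat and 0 and 5 with mivebresib, so it was not tested and no change is given. After mivebresib TYRP1 and GPNMB were again first and second, at 833 and 225.0 CPM per kilobase, whereas RAB27A went from place 15 to 24 and SLC24A5 from 18 to 26.

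**Figure D1:**
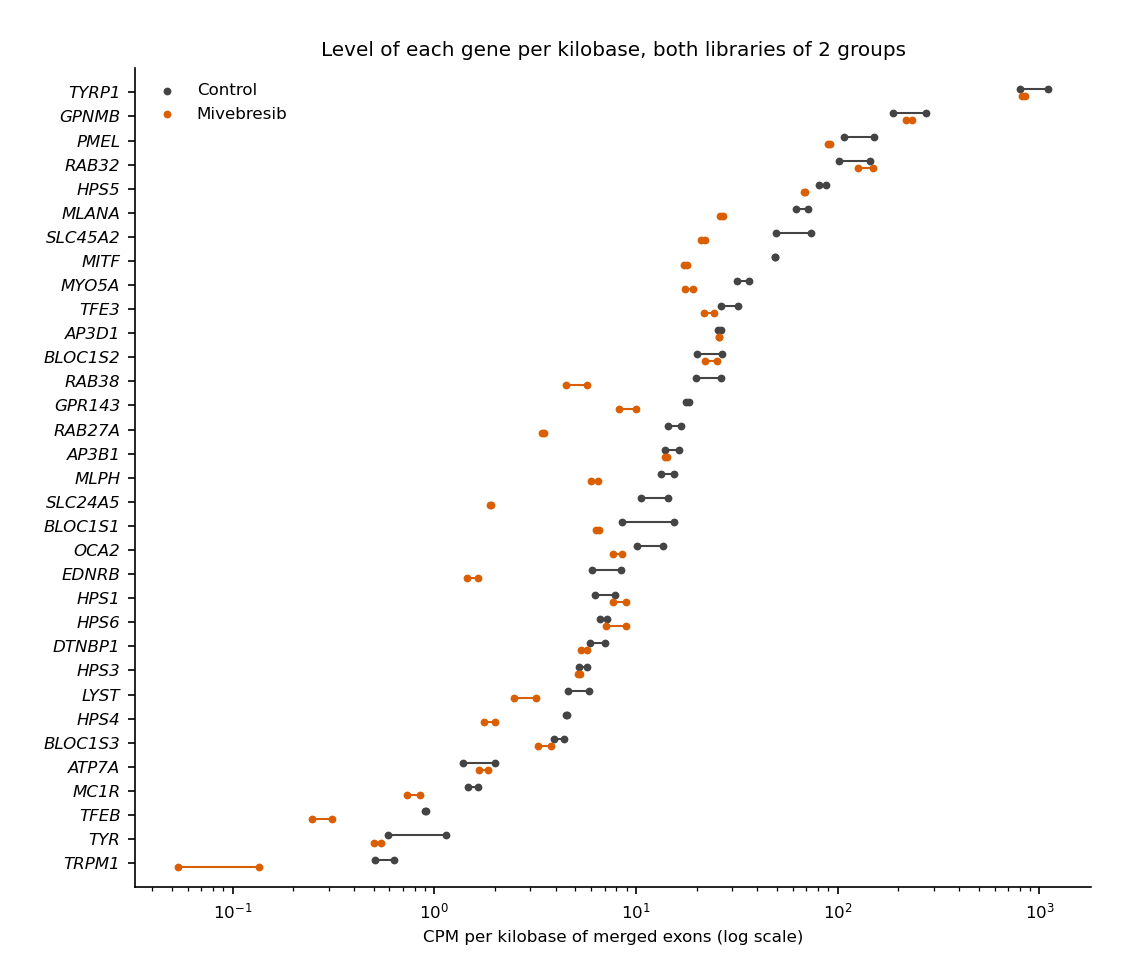
Level of each gene other than DCT in CPM per kilobase of merged exons (log axis), with dark points for both control libraries and orange points for both mivebresib libraries, each pair joined by a line. The mivebresib points of TYRP1 and GPNMB fall inside the control pairs, whereas those of MITF, RAB27A, SLC24A5 and EDNRB lie to the left of them.

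The drugs differed in how many of the 33 tested genes changed (edgeR quasi-likelihood test, adjusted p below 0.05). Romidepsin raised 1 and lowered 2, against 15.2% raised and 15.8% lowered among the 15085 genes tested. Quisinostat raised 2 and lowered 15, against 28% and 25.1% of all genes. Mivebresib raised 0 and lowered 20, against 22.2% and 24.1% of all genes; at an unadjusted p below 0.05 it also raised 0, and DESeq2 gave 0. The median log2 FC of the 33 genes was 0.019 for romidepsin, -0.25 for quisinostat and -0.72 for mivebresib. The medians over all genes tested were -0.012, -0.0036 and 0.0067. The quisinostat median was -0.0457 with library size alone as the scaling and -0.0346 on the deposited log CPM, and the mivebresib median was -0.468 without the second control library. In bulk RNA fewer cells of a kind and less RNA per cell cannot be told apart.

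With the study's further limit of a log2 FC beyond 1.5, TRPM1 fell with quisinostat, and TFEB, SLC45A2, SLC24A5, TRPM1, EDNRB, RAB27A and RAB38 fell with mivebresib. Over all genes that limit left 3.77% up and 0.312% down with romidepsin, 11.2% and 1.03% with quisinostat, and 3.96% and 4.36% with mivebresib. Without the first control library 4 genes rose and 2 fell with romidepsin, and without the second 8 rose and 6 fell. Mivebresib lowered 20 genes without the first or the second control library, and then raised 2 and 1, and quisinostat lowered 18 and 19. Without the first or the second mivebresib library the mivebresib calls of TFE3, PMEL, OCA2, HPS5 and BLOC1S1 were lost (edgeR adjusted p from 0.0569 to 0.233). Without the first quisinostat library those of TFEB, AP3D1, LYST and MYO5A were lost with that drug, and without the second those of TFE3, MC1R, BLOC1S3 and AP3D1. The romidepsin calls of TFE3 and RAB32 were lost without either romidepsin library. Scaled by library size alone, which moved the median of all genes by 0.2 with quisinostat, quisinostat raised 4 and lowered 9, the calls of TFE3, MC1R, HPS4, AP3D1, LYST and MYO5A being lost, and among all genes the share of calls that were raised went from 52.7% to 72.4%. With romidepsin the same scaling gave 4 raised and 2 lowered, and the share among all genes went from 49.1% to 62.1%.

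**Figure D2:**
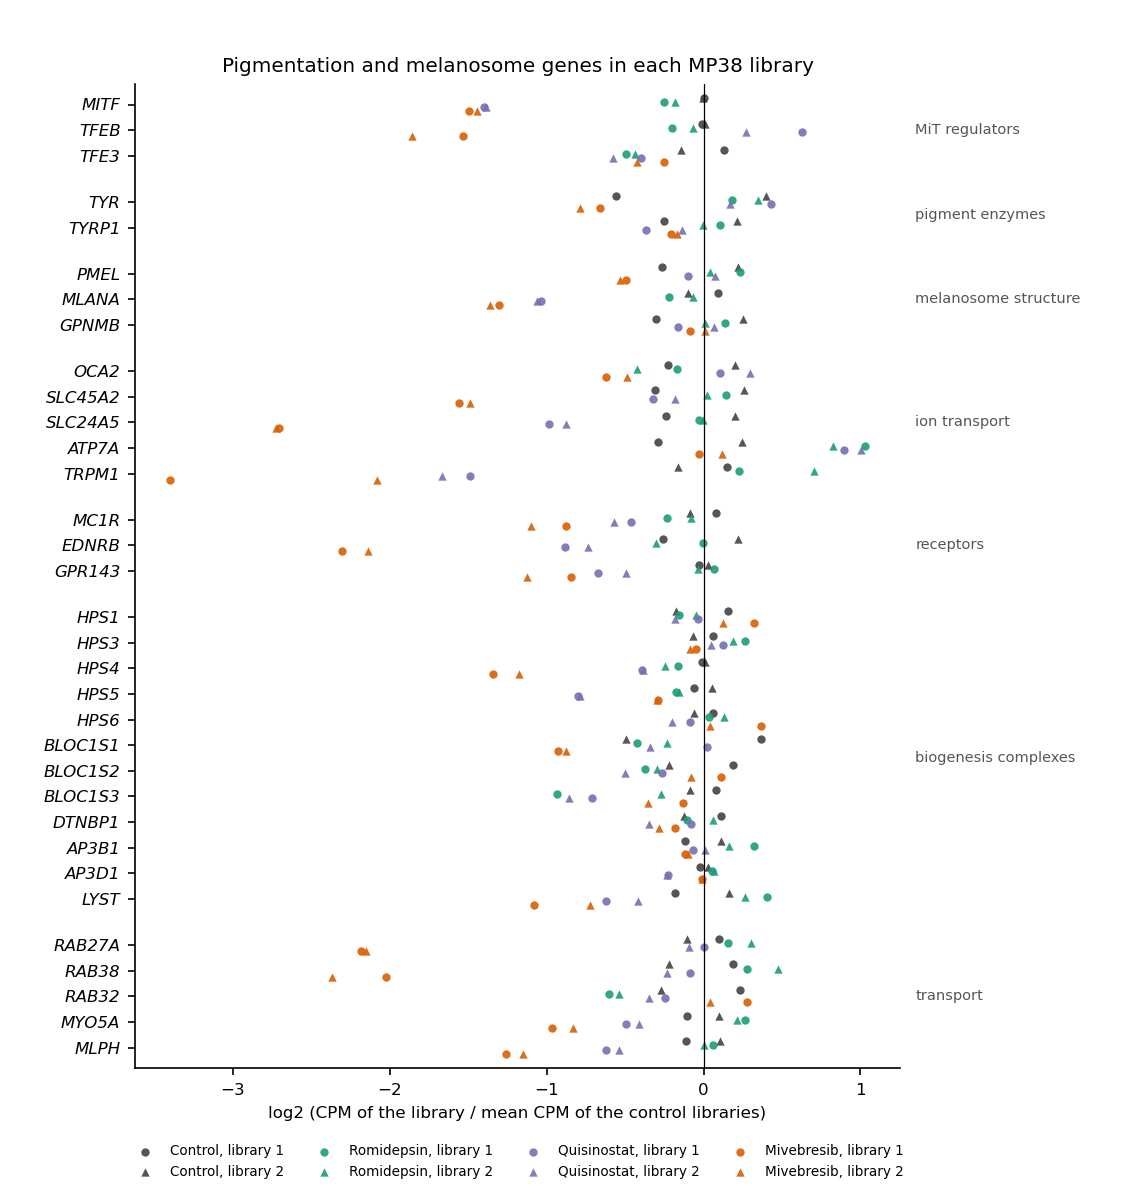
Each of the 33 tested genes in each of the 8 libraries, as log2 of the library's CPM over the mean CPM of the controls (circles for library 1, triangles for library 2, coloured by group, genes grouped by role). The mivebresib points (orange) of SLC24A5, TRPM1, EDNRB, RAB27A and RAB38 lie beyond -2, and the points of ATP7A to the right near 1 are romidepsin (green) and quisinostat (purple).

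Of the MiT regulators, MITF (ENSG00000187098, chr3:69739435-69968337, + strand in GRCh38) fell with quisinostat and with mivebresib. It stood at 351 and 349 CPM in the control, 293 and 308 with romidepsin, 132 and 134 with quisinostat, and 124 and 129 with mivebresib. The control libraries were nearly equal, and the 6 drug libraries lay below them. The log2 FC was -1.40 ± 0.078 (SE) with quisinostat and -1.47 ± 0.078 with mivebresib (edgeR adjusted p = 4.19e-06 and 4.67e-06), and the romidepsin value of -0.22 ± 0.076 did not pass (edgeR adjusted p = 0.0587). The table holds 1 row for MITF, so its melanocyte and other isoforms were not told apart.

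TFEB, which drives lysosomal genes, went in opposite directions with quisinostat and mivebresib. Its levels were 5.07 and 5.11 CPM in the control, 4.43 and 4.85 with romidepsin, 7.85 and 6.14 with quisinostat, and 1.76 and 1.40 with mivebresib. The quisinostat libraries were above and the mivebresib libraries below both controls. The log2 FC was 0.46 ± 0.16 with quisinostat (edgeR adjusted p = 0.0418) and -1.69 ± 0.19 with mivebresib (edgeR adjusted p = 2e-04). The rise did not pass in DESeq2 (adjusted p = 0.089), nor without either control library (edgeR adjusted p = 0.0854 and 0.0771).

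TFE3, the third factor of the family, fell with all 3 drugs. Its libraries held 137 and 113 CPM in the control, 88.5 and 92.2 with romidepsin, 94.9 and 83.5 with quisinostat, and 105 and 93.1 with mivebresib. All 6 drug libraries lay below both controls, with log2 FC of -0.47 ± 0.12, -0.48 ± 0.12 and -0.33 ± 0.12 for romidepsin, quisinostat and mivebresib (edgeR adjusted p = 0.0168, 0.00742 and 0.042). The mivebresib call was lost without the first control library (edgeR adjusted p = 0.149).

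**Figure D3:**
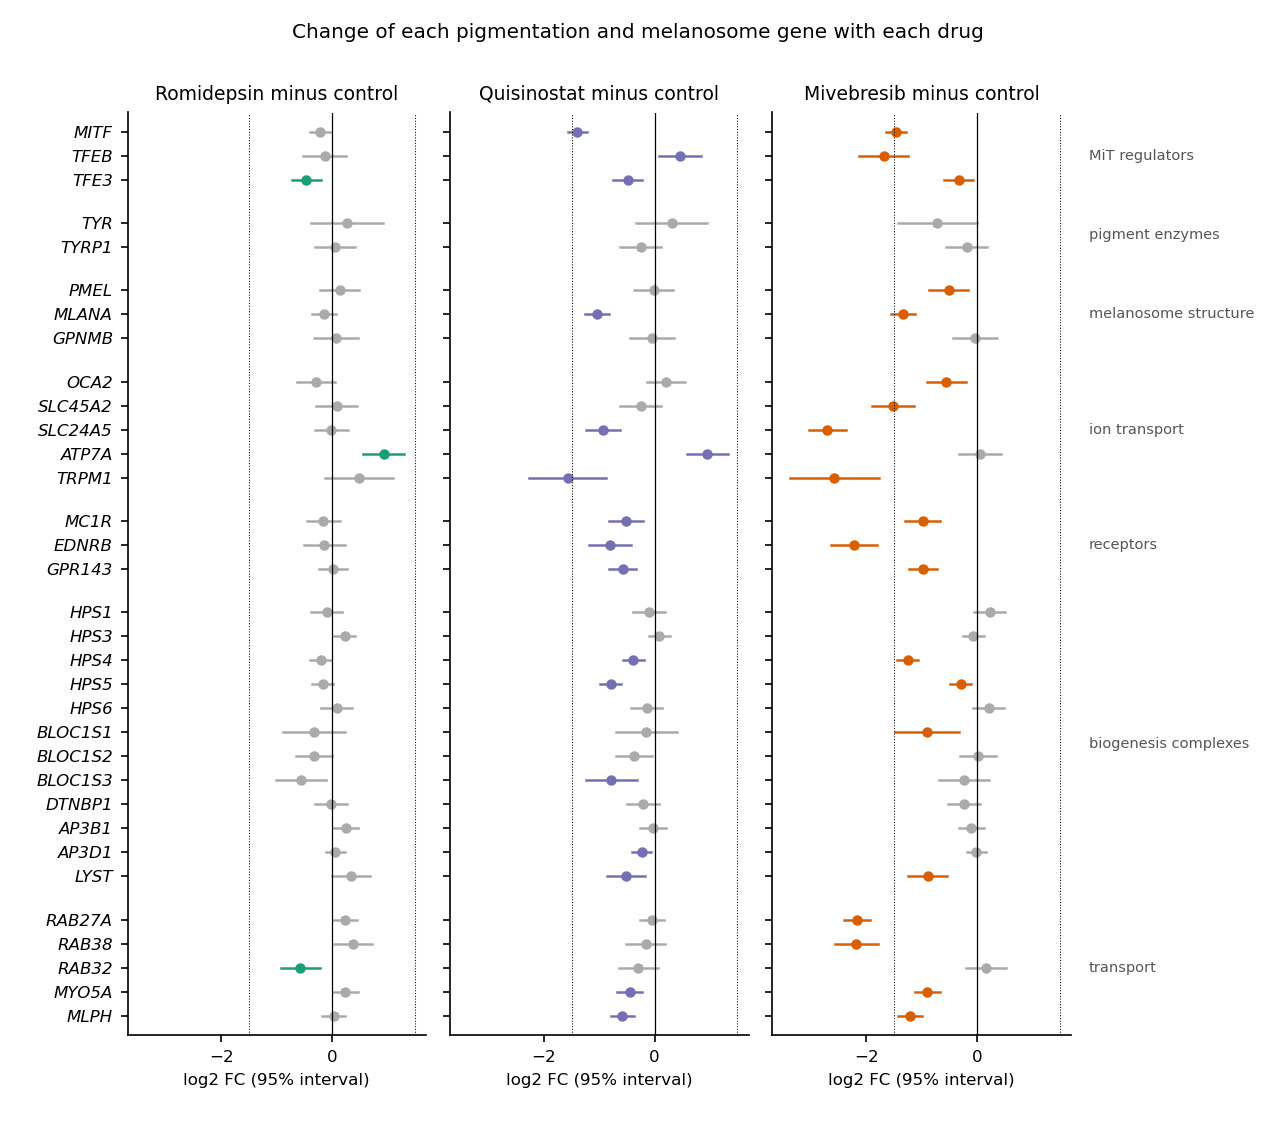
log2 FC of each tested gene against the control with its 95% interval, 1 panel per drug, coloured where the edgeR adjusted p is below 0.05 and grey otherwise, with dotted lines at -1.5 and 1.5. Romidepsin has 3 coloured genes, quisinostat 17 and mivebresib 20, and the coloured mivebresib points all lie to the left of 0.

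Neither tested pigment enzyme passed with any drug against the control; at an unadjusted p below 0.05, 1 of them, TYR, was lower with mivebresib. TYRP1 (ENSG00000107165) stood at 2984 and 4115 CPM in the control, 3810.0 and 3540.0 with romidepsin, 2747 and 3227 with quisinostat, and 3073 and 3162 with mivebresib. Every drug group overlapped the control range, and the log2 FC with mivebresib was -0.19 ± 0.16 with a 95% interval of -0.55 to 0.18 (edgeR adjusted p = 0.371); without the second control library it was 0.0602. TYRP1 shares 102 exon bases with the antisense gene LURAP1L-AS1, and whether the counting used strand is not given in the sources used here.

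TYR, which oxidises tyrosine in the first step of melanin synthesis, stood at 1.77 and 3.43 CPM in the control, 2.95 and 3.31 with romidepsin, 3.51 and 2.93 with quisinostat, and 1.65 and 1.51 with mivebresib. The mivebresib libraries were the lowest, but the controls themselves differed 1.94-fold, and the log2 FC of -0.72 ± 0.31 did not pass (edgeR adjusted p = 0.0904). Against quisinostat and romidepsin, whose libraries lay closer together, TYR was lower with mivebresib (log2 FC -1.03 ± 0.30 and -0.99 ± 0.30, edgeR adjusted p = 0.0173 and 0.0257). Neither call was stable: the first was lost without the first quisinostat library or either mivebresib library (edgeR adjusted p from 0.066 to 0.0908), and the second without any 1 of the 4 libraries compared (edgeR adjusted p from 0.064 to 0.119).

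Among the structural proteins, MLANA, a melanosome membrane protein that takes part in PMEL maturation, fell with 2 of the drugs. Its levels were 219 and 192 CPM in the control, 177 and 197 with romidepsin, 101 and 98.6 with quisinostat, and 83.4 and 80.2 with mivebresib. The quisinostat and mivebresib libraries did not overlap the controls, and the log2 FC was -1.05 ± 0.095 and -1.33 ± 0.096 (edgeR adjusted p = 4.35e-05 and 1.77e-05). PMEL, the scaffold protein, stood at 420.4 and 589 CPM in the control, 593 and 519.8 with romidepsin, 471 and 530.1 with quisinostat, and 357 and 349 with mivebresib. Only the mivebresib group lay below both controls, with a log2 FC of -0.51 ± 0.16 (edgeR adjusted p = 0.0252). Without the second control library the log2 FC of PMEL was -0.253 and did not pass (edgeR adjusted p = 0.0644). PMEL shares 89 exon bases with CDK2 on the other strand, a cell cycle kinase that stood at 185 and 161 CPM in the control, 141 and 144 with romidepsin, 81.4 and 77.6 with quisinostat, and 62.4 and 65.7 with mivebresib. GPNMB, a glycoprotein of late melanosomes, stood at 1130.0 and 1663 CPM in the control, 1538 and 1406 with romidepsin, 1247 and 1460.0 with quisinostat, and 1313 and 1405 with mivebresib. The drug libraries all lay inside the control range, and the 95% interval of the mivebresib log2 FC was -0.44 to 0.36.

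Of the 5 ion carriers and channels, 1 rose with each HDAC inhibitor, 2 fell with quisinostat and 4 fell with mivebresib. The raised share was 20% with romidepsin and 20% with quisinostat, against 15.2% and 28% of all genes. The lowered share was 40% with quisinostat and 80% with mivebresib, against 25.1% and 24.1% of all genes. SLC24A5 (ENSG00000188467, chr15:48120972-48142672, + strand), a melanosomal cation exchanger, stood at 50.7 and 68.9 CPM in the control, 58.6 and 59.5 with romidepsin, 30.3 and 32.5 with quisinostat, and 9.18 and 9.06 with mivebresib. The quisinostat libraries lay below the controls and the mivebresib libraries far below both. The log2 FC was -0.93 ± 0.13 and -2.71 ± 0.15 (edgeR adjusted p = 0.000512 and 5.02e-06). Its exons share 1574 bases with MYEF2 on the other strand, which stood at 52.6 and 61.02 CPM in the control, 70.9 and 68.2 with romidepsin, 59.6 and 63.4 with quisinostat, and 28.4 and 32.8 with mivebresib. SLC45A2, a transporter that helps to keep the melanosome lumen near neutral, stood at 162 and 241 CPM in the control, 223 and 205 with romidepsin, 161 and 178 with quisinostat, and 68.5 and 71.8 with mivebresib. Of the drug groups only mivebresib lay below both controls, with a log2 FC of -1.52 ± 0.17 (edgeR adjusted p = 0.000156).

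TRPM1 (ENSG00000134160, chr15:31001061-31161273, - strand), a cation channel of melanocytes and retina, was rare. It stood at 4.71 and 3.80 CPM in the control, 4.98 and 6.92 with romidepsin, 1.52 and 1.34 with quisinostat, and 0.402 and 1.01 with mivebresib. The romidepsin libraries lay above the controls without passing (edgeR adjusted p = 0.201), whereas the quisinostat and mivebresib libraries lay below them (log2 FC -1.57 ± 0.31 and -2.58 ± 0.35, edgeR adjusted p = 0.0028 and 0.000491). TRPM1 shares 334 exon bases with the antisense gene AC009562.1. The precursor of miR-211 (chr15:31065032-31065141, - strand) lies in an intron of TRPM1. Its mature strand is shown because TRPM1 is its host gene, with the seed, bases 2 to 8, in capitals; the microRNA itself was not measured.
hsa-miR-211-5p: uUCCCUUUgucauccuucgccu

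ATP7A, the pump that loads copper into tyrosinase, was the member raised by both HDAC inhibitors. Its libraries held 15.1 and 21.9 CPM in the control, 37.8 and 32.8 with romidepsin, 34.5 and 37.2 with quisinostat, and 18.2 and 20.1 with mivebresib. The romidepsin and quisinostat libraries lay above all control and mivebresib libraries, and the log2 FC was 0.93 ± 0.16 and 0.95 ± 0.16 (edgeR adjusted p = 0.00358 and 0.00134). ATP7A shares 97 exon bases with PGK1 and 287 with the pseudogene AL356235.1 on the same strand. PGK1 stood at 539.5 and 547.6 CPM in the control, and 486.5 and 474.4 with romidepsin. Its levels were 449.8 and 443 CPM with quisinostat, and 529 and 505.3 with mivebresib. OCA2, an anion channel of the melanosome, stood at 33.5 and 44.99 CPM in the control, 34.95 and 29.3 with romidepsin, 42.3 and 48.1 with quisinostat, and 25.5 and 27.97 with mivebresib. The mivebresib libraries lay below the controls (log2 FC -0.55 ± 0.15, edgeR adjusted p = 0.0173).

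The 3 receptors fell with quisinostat and with mivebresib, and 0 passed with romidepsin, where 0 had an unadjusted p below 0.05 in edgeR. Among all genes the lowered share was 25.1% with quisinostat, 24.1% with mivebresib and 15.8% with romidepsin. EDNRB (ENSG00000136160, chr13:77895481-77975529, - strand), the endothelin receptor of the melanocyte lineage, stood at 33.8 and 47.3 CPM in the control, 40.5 and 32.9 with romidepsin, 22.02 and 24.4 with quisinostat, and 8.19 and 9.20 with mivebresib. The quisinostat and mivebresib libraries did not overlap the controls, and the log2 FC was -0.80 ± 0.17 and -2.22 ± 0.18 (edgeR adjusted p = 0.00372 and 3.34e-05). GPR143, a receptor of the melanosome membrane, stood at 43.9 and 45.4 CPM in the control, 46.8 and 43.6 with romidepsin, 28.03 and 31.7 with quisinostat, and 24.9 and 20.5 with mivebresib. The romidepsin libraries overlapped the controls and the other drug libraries lay below them, with log2 FC of -0.58 ± 0.11 and -0.98 ± 0.11 (edgeR adjusted p = 0.00241 and 0.000191).

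MC1R (ENSG00000258839, chr16:89912119-89920977, + strand), the melanocortin receptor that signals for dark pigment, stood at 9.21 and 8.22 CPM in the control, 7.42 and 8.23 with romidepsin, 6.33 and 5.86 with quisinostat, and 4.75 and 4.06 with mivebresib. The quisinostat libraries lay below the controls and the mivebresib libraries below those, with log2 FC of -0.52 ± 0.13 and -0.98 ± 0.14 (edgeR adjusted p = 0.011 and 0.000607). The quisinostat call was lost with library size alone as the scaling (log2 FC -0.316, edgeR adjusted p = 0.0792). Its counts are uncertain, since 547 exon bases are shared with TCF25 and 1192 with AC092143.1 on the same strand. TCF25 stood at 65.03 and 65.6 CPM in the control, 44.4 and 47.7 with romidepsin, 34.4 and 30.6 with quisinostat, and 81.6 and 73.8 with mivebresib. The tubulin gene TUBB3, which forms a readthrough with MC1R, stood at 80.4 and 76.3 CPM in the control, 45.9 and 47.6 with romidepsin, 96.6 and 85.01 with quisinostat, and 386 and 348 with mivebresib, and so it rose with mivebresib while MC1R fell (log2 FC 2.23 ± 0.098, edgeR adjusted p = 2.31e-06).

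Of the 12 proteins that assemble the organelle, 0 passed with romidepsin in edgeR, where 2 were higher and 3 lower at an unadjusted p below 0.05. With quisinostat 5 fell (41.7%, against 25.1% of all genes) and with mivebresib 4 fell (33.3%, against 24.1%). HPS4, part of the BLOC-3 exchange factor for RAB32 and RAB38, stood at 48.3 and 48.9 CPM in the control, 43.4 and 41.00 with romidepsin, 37.02 and 37.2 with quisinostat, and 19.1 and 21.5 with mivebresib. The groups did not overlap, and the log2 FC was -0.39 ± 0.083 with quisinostat and -1.26 ± 0.086 with mivebresib (edgeR adjusted p = 0.00439 and 1.44e-05). With library size alone as the scaling the quisinostat call was lost (edgeR adjusted p = 0.109). HPS4 shares 598 exon bases with ASPHD2 on the other strand, which stood at 4.92 and 6.28 CPM in the control, 13.5 and 11.8 with romidepsin, 10.7 and 13.7 with quisinostat, and 3.55 and 4.67 with mivebresib.

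HPS5, of the BLOC-2 complex, had the highest level per kilobase of the 12 in the control. Its levels were 519 and 562 CPM in the control, 478 and 486 with romidepsin, 310.1 and 313 with quisinostat, and 442 and 439.6 with mivebresib. The quisinostat libraries were the lowest here, with a log2 FC of -0.79 ± 0.083 against -0.30 ± 0.083 for mivebresib (edgeR adjusted p = 9.7e-05 and 0.0184). LYST, whose loss gives giant lysosomes and melanosomes, stood at 90.6 and 115 CPM in the control, 136 and 124 with romidepsin, 66.9 and 77.02 with quisinostat, and 48.7 and 62.4 with mivebresib. The quisinostat and mivebresib libraries lay below the controls and the romidepsin libraries above them, with log2 FC of -0.52 ± 0.15 and -0.89 ± 0.15 for the first pair (edgeR adjusted p = 0.0193 and 0.00172). The quisinostat call of LYST was lost without the second control library (edgeR adjusted p = 0.0509).

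BLOC1S1, a subunit of BLOC-1, stood at 25.7 and 14.1 CPM in the control, 14.9 and 16.97 with romidepsin, 20.2 and 15.8 with quisinostat, and 10.5 and 10.9 with mivebresib. The mivebresib libraries were below both controls (log2 FC -0.90 ± 0.25, edgeR adjusted p = 0.0185), but the call was lost without the first control library (-0.407, edgeR adjusted p = 0.0514). Its readthrough with RDH5 shares 494 exon bases with it. BLOC1S3, another subunit of BLOC-1, stood at 11.7 and 10.4 CPM in the control, 5.80 and 9.19 with romidepsin, 6.77 and 6.11 with quisinostat, and 10.1 and 8.66 with mivebresib, and it fell with quisinostat (log2 FC -0.78 ± 0.20, edgeR adjusted p = 0.0112). AP3D1, the delta subunit of the AP-3 sorting adaptor, stood at 221 and 229 CPM in the control, 233 and 235 with romidepsin, 192 and 191 with quisinostat, and 223 and 223 with mivebresib. Its fall with quisinostat was small (log2 FC -0.23 ± 0.074, edgeR adjusted p = 0.0283) and was lost with library size alone as the scaling (-0.0297, edgeR adjusted p = 0.761). HPS1, HPS3, HPS6, BLOC1S2, DTNBP1 and AP3B1 did not pass with any drug against the control. Exon bases are also shared by HPS3 with CP (1418), LYST with LDHAP2 (590), AP3B1 with AC024568.1 (377), BLOC1S3 with AC005779.2 (121) and, among the receptors, EDNRB with RNF219-AS1 (80), so their counts could hold reads of the partner. The partners CP, LDHAP2 and AC005779.2 were themselves near 0, with at most 5, 10 and 5 counts in any library.

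The transport proteins differed among themselves with mivebresib. RAB27A (ENSG00000069974, chr15:55202966-55319113, - strand), the GTPase that ties the mature melanosome to its motor, stood at 93.3 and 81.04 CPM in the control, 97.2 and 108 with romidepsin, 87.2 and 81.7 with quisinostat, and 19.2 and 19.6 with mivebresib. RAB38, which takes part in sorting enzymes to the young melanosome, stood at 38.8 and 29.2 CPM in the control, 41.1 and 47.2 with romidepsin, 31.96 and 28.9 with quisinostat, and 8.34 and 6.58 with mivebresib. The mivebresib libraries of both lay far below all others, with log2 FC of -2.17 ± 0.10 for RAB27A and -2.19 ± 0.17 for RAB38 (edgeR adjusted p = 2.71e-06 and 2.65e-05). Neither passed with an HDAC inhibitor against the control. RAB27A shares 154 exon bases with PIGB on the other strand, which stood at 19.3 and 21.1 CPM in the control, 17.5 and 17.4 with romidepsin, 13.9 and 13.2 with quisinostat, and 7.79 and 9.46 with mivebresib, and 183 with PIGBOS1. RAB32, the close relative of RAB38, stood at 175 and 124 CPM in the control, 98.1 and 103 with romidepsin, 126 and 117 with quisinostat, and 181 and 154 with mivebresib. The mivebresib libraries overlapped the controls, and the romidepsin libraries lay below them (log2 FC -0.57 ± 0.16, edgeR adjusted p = 0.0253). The romidepsin call was lost without the first control library (-0.275, edgeR adjusted p = 0.0719).

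The motor and its linker fell with quisinostat and with mivebresib. MYO5A, the myosin, stood at 413 and 474 CPM in the control, 533 and 514 with romidepsin, 315 and 333 with quisinostat, and 227 and 249 with mivebresib. MLPH, which links RAB27A to MYO5A, stood at 100.4 and 116 CPM in the control, 113 and 108 with romidepsin, 70.4 and 74.5 with quisinostat, and 45.2 and 48.8 with mivebresib. For both genes the mivebresib libraries were the lowest and the quisinostat libraries next. The log2 FC of MYO5A was -0.45 ± 0.099 and -0.90 ± 0.100 (edgeR adjusted p = 0.00497 and 0.000164), and that of MLPH -0.58 ± 0.093 and -1.20 ± 0.095 (edgeR adjusted p = 0.000992 and 2.82e-05).

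Set beside the motifs printed above, the genes with an M-box in the window did not move alike. Genes without a promoter at hand, PMEL, SLC45A2 and RAB38 among them, are outside this comparison. SLC24A5 and GPR143 fell with quisinostat and mivebresib, BLOC1S3 fell with quisinostat, and TYR, TYRP1 and GPNMB did not pass with any drug against the control. Of the CLEAR genes, ATP7A rose with both HDAC inhibitors, HPS5 fell with quisinostat and mivebresib, BLOC1S1 fell with mivebresib, and HPS3 did not pass.

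The drugs were then compared with each other in the same model. Romidepsin and quisinostat, a cyclic depsipeptide and a hydroxamate, were used at the same dose and time. In the study's viability tests romidepsin was the more potent of the pair in MP38. Equal doses therefore need not act equally, and their difference holds for these doses. Quisinostat left 2 of the 33 genes higher and 13 lower than romidepsin, against 21% and 14.6% of all genes. The log2 FC between them was -1.18 ± 0.077 for MITF, -2.06 ± 0.30 for TRPM1, -0.91 ± 0.13 for SLC24A5, -0.91 ± 0.095 for MLANA and -0.85 ± 0.15 for LYST (edgeR adjusted p = 4.96e-05, 0.00138, 0.00135, 0.000303 and 0.00342). The higher genes were TFEB (0.59 ± 0.16) and OCA2 (0.49 ± 0.15), and both calls were lost with single libraries left out. That of TFEB was lost without either romidepsin library or the first quisinostat library (edgeR adjusted p from 0.0748 to 0.199), and that of OCA2 without any 1 of the romidepsin, quisinostat or mivebresib libraries (edgeR adjusted p from 0.0577 to 0.224). ATP7A, which both drugs raised, had a 95% interval of -0.34 to 0.38 for the difference.

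Mivebresib was given at a higher dose than quisinostat, so their difference holds for these doses. It left 7 of the 33 genes higher and 17 lower than quisinostat, against 26.2% and 31.5% of all genes. The MITF difference was -0.07 with a 95% interval of -0.25 to 0.10 (edgeR adjusted p = 0.433). Lower with mivebresib were TFEB by a log2 FC of -2.15 ± 0.19, RAB27A by -2.12 ± 0.10, RAB38 by -2.03 ± 0.17, SLC24A5 by -1.78 ± 0.15, EDNRB by -1.42 ± 0.18 and SLC45A2 by -1.27 ± 0.17, with edgeR adjusted p from 1.71e-06 to 0.000266. Among the 7 higher genes were HPS5 (0.50 ± 0.083) and RAB32 (0.46 ± 0.16), but with library size alone as the scaling, which moved the median of all genes by -0.179, 1 gene was higher and 22 were lower, and the share of calls that were higher among all genes went from 45.4% to 30.1%. Without the first quisinostat library 1 gene was higher, and the call of RAB32 was also lost without the second quisinostat library (edgeR adjusted p = 0.14) and the first mivebresib library (edgeR adjusted p = 0.19). Against romidepsin, mivebresib left 1 gene higher, RAB32 (0.74 ± 0.16), and 20 lower, against 23.7% and 25.2% of all genes.

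**Figure D4:**
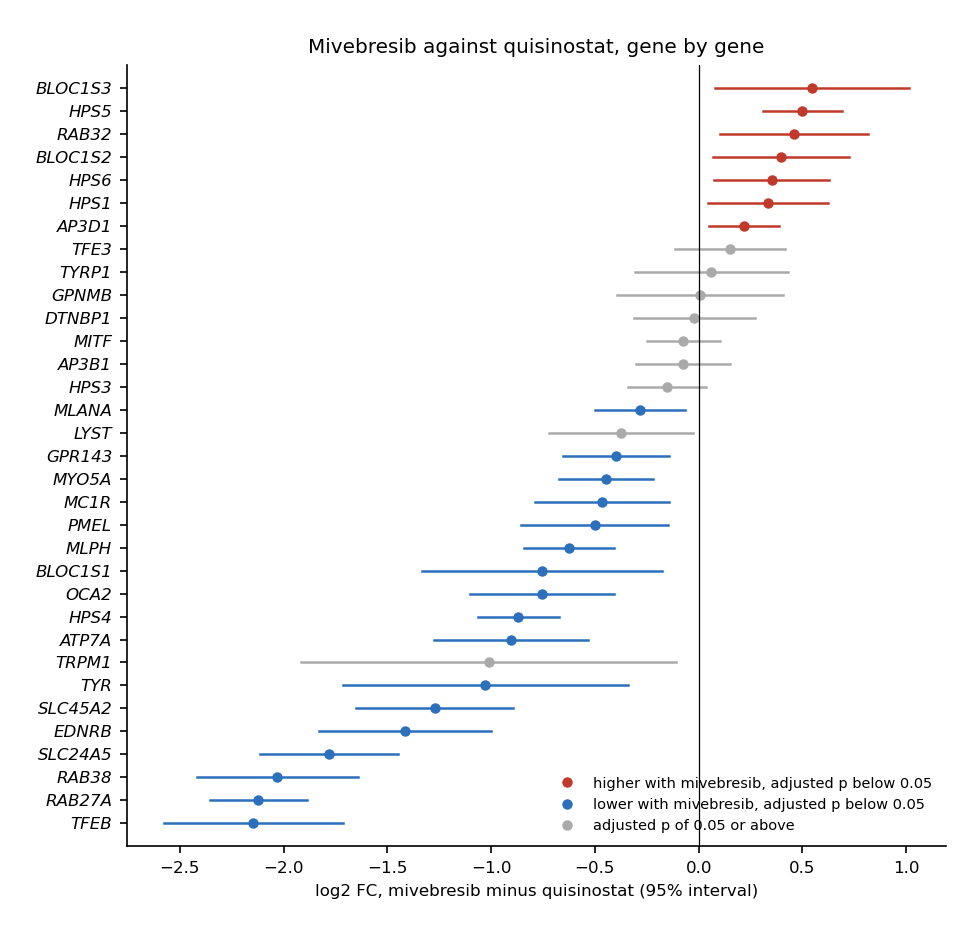
log2 FC between mivebresib and quisinostat for each tested gene with its 95% interval, sorted, in red where higher and in blue where lower with mivebresib at an edgeR adjusted p below 0.05, and in grey otherwise. TFEB, RAB27A and RAB38 lie lowest, MITF lies among the grey genes next to 0, and 7 genes are red.

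The regulators upstream of MITF were taken from a list of 12 genes, of which 11 were tested. With mivebresib 4 rose and 5 fell, with quisinostat 2 rose and 5 fell, and with romidepsin 2 rose and 3 fell. In percent this was 36.4% up and 45.5% down with mivebresib (all genes: 22.2% and 24.1%), 18.2% and 45.5% with quisinostat (28% and 25.1%), and 18.2% and 27.3% with romidepsin (15.2% and 15.8%). SOX10, which drives MITF in the neural crest lineage, stood at 216 and 202 CPM in the control, 149 and 169 with romidepsin, 107 and 114 with quisinostat, and 57.2 and 52.8 with mivebresib. The drug libraries all lay below the controls, with log2 FC of -0.39 ± 0.093, -0.92 ± 0.094 and -1.93 ± 0.097 for romidepsin, quisinostat and mivebresib (edgeR adjusted p = 0.0141, 8.28e-05 and 3.8e-06). PAX3, another activator of MITF, stood at 179.6 and 178 CPM in the control, 160.0 and 159.5 with romidepsin, 132 and 132 with quisinostat, and 199 and 221 with mivebresib, so that it was above the controls with mivebresib and below them with quisinostat (log2 FC 0.23 ± 0.081 and -0.44 ± 0.081, edgeR adjusted p = 0.0447 and 0.0021). KIT, the stem cell factor receptor, stood at 209.5 and 310.3 CPM in the control, 336 and 288 with romidepsin, 171 and 198 with quisinostat, and 136 and 152 with mivebresib, and fell with quisinostat and mivebresib (log2 FC -0.49 ± 0.18 and -0.85 ± 0.18, edgeR adjusted p = 0.0434 and 0.00472). POU3F2 stood at 8.11 and 7.16 CPM in the control and 2.19 and 2.41 with mivebresib. It also lay below both controls with romidepsin (4.26 and 3.48) and quisinostat (5.28 and 6.27). These are library levels of POU3F2, printed without a test result. ZEB2 fell with each drug and SOX9 rose with each drug, with log2 FC of -1.38 ± 0.096 and 0.81 ± 0.17 for mivebresib.

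Other genes linked to MITF, 13 of them tested, gave 1 risen and 9 fallen with mivebresib, 2 and 7 with quisinostat, and 2 and 3 with romidepsin, with median log2 FC of -0.75, -0.52 and -0.096. The lowered share was 69.2%, 53.8% and 23.1%, against 24.1%, 25.1% and 15.8% of all genes, and the raised share 7.69%, 15.4% and 15.4%, against 22.2%, 28% and 15.2%. ABCB5, a membrane transporter, stood at 46.7 and 45.3 CPM in the control, 44.6 and 41.6 with romidepsin, 13.95 and 13.3 with quisinostat, and 2.63 and 3.42 with mivebresib. The mivebresib libraries were the lowest by far (log2 FC -3.93 ± 0.12, edgeR adjusted p = 7.76e-07), and the quisinostat libraries next (-1.76 ± 0.10, edgeR adjusted p = 5.28e-06). CITED1, a transcriptional coactivator, stood at 92.9 and 65.2 CPM in the control, 44.2 and 50.9 with romidepsin, 17.6 and 14.99 with quisinostat, and 11.01 and 9.35 with mivebresib, and fell with each drug. CAPN3, a protease, and BIRC7, an inhibitor of apoptosis, fell with mivebresib (log2 FC -2.96 ± 0.19 and -1.75 ± 0.097). PPARGC1A, a coactivator of mitochondrial genes, rose with both HDAC inhibitors, from counts of 1 and 2 in the control to 45 and 51 with romidepsin and 138 and 130 with quisinostat, against 4 and 1 with mivebresib; no fold is given from so few control counts.

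Other melanosome membrane and transport proteins gave 2 risen and 6 fallen of 17 with mivebresib, 2 and 8 with quisinostat, and 3 and 1 with romidepsin. The lowered share was 35.3% with mivebresib and 47.1% with quisinostat, against 24.1% and 25.1% of all genes. The raised share was 11.8% with each of these drugs, against 22.2% and 28% of all genes. With romidepsin the raised share, 17.6%, was near the 15.2% of all genes, and the lowered share was 5.88% against 15.8%. MREG, a partner of the RAB27A transport system, stood at 29.8 and 25.6 CPM in the control, 42.1 and 50.1 with romidepsin, 30.1 and 30.4 with quisinostat, and 5.01 and 4.64 with mivebresib. It was above the controls with romidepsin and far below them with mivebresib (log2 FC 0.73 ± 0.11 and -2.52 ± 0.13, edgeR adjusted p = 0.00196 and 4.17e-06). RAB17, a small GTPase, rose with each HDAC inhibitor but fell with mivebresib (log2 FC 1.04 ± 0.14, 0.87 ± 0.14 and -1.22 ± 0.16). SLC7A11, the cystine carrier, and MFSD12, a melanosomal carrier tied to red pigment, rose with mivebresib (log2 FC 1.27 ± 0.19 and 0.73 ± 0.10).

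Of 16 other BLOC, AP-3 and HOPS subunits, 3 rose and 1 fell with mivebresib and likewise with quisinostat. The raised share of 18.8% was below the 22.2% and 28% of all genes. The lowered share of 6.25% was below the 24.1% and 25.1% of all genes. With romidepsin 0 passed in edgeR, 1 was higher and 3 lower at an unadjusted p below 0.05, and DESeq2 called 1 higher. AP3M2 and VPS16 rose with mivebresib (log2 FC 0.85 ± 0.099 and 0.68 ± 0.090). Of 17 lysosomal and nutrient-sensing genes of the TFEB and TFE3 network, 6 rose and 3 fell with mivebresib, with a median log2 FC of 0.36, and 3 rose and 4 fell with quisinostat. The raised and lowered shares were 35.3% and 17.6% with mivebresib (all genes: 22.2% and 24.1%) and 17.6% and 23.5% with quisinostat (28% and 25.1%). With romidepsin 0 rose and 1 fell in edgeR (5.88%), against 15.2% and 15.8% of all genes. At an unadjusted p below 0.05 in edgeR, 3 were higher and 2 lower with romidepsin. SQSTM1, the autophagy receptor, stood at 476 and 432 CPM in the control, 358 and 366 with romidepsin, 254 and 243 with quisinostat, and 1138 and 1001 with mivebresib. It was far above the controls with mivebresib and below them with quisinostat and romidepsin (log2 FC 1.24 ± 0.10, -0.87 ± 0.100 and -0.33 ± 0.099, edgeR adjusted p = 3.28e-05, 0.000155 and 0.0363). NEU1, a lysosomal sialidase, and MCOLN1, a lysosomal cation channel, rose with mivebresib (log2 FC 1.35 ± 0.17 and 0.62 ± 0.087). RRAGD, of the same list, lay below both controls with mivebresib, at 65.9 and 55.4 CPM against 112 and 86.55. It lay above them with romidepsin (124 and 136) and quisinostat (154 and 154.5). These are library levels of RRAGD, printed without a test result.

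**Figure D5:**
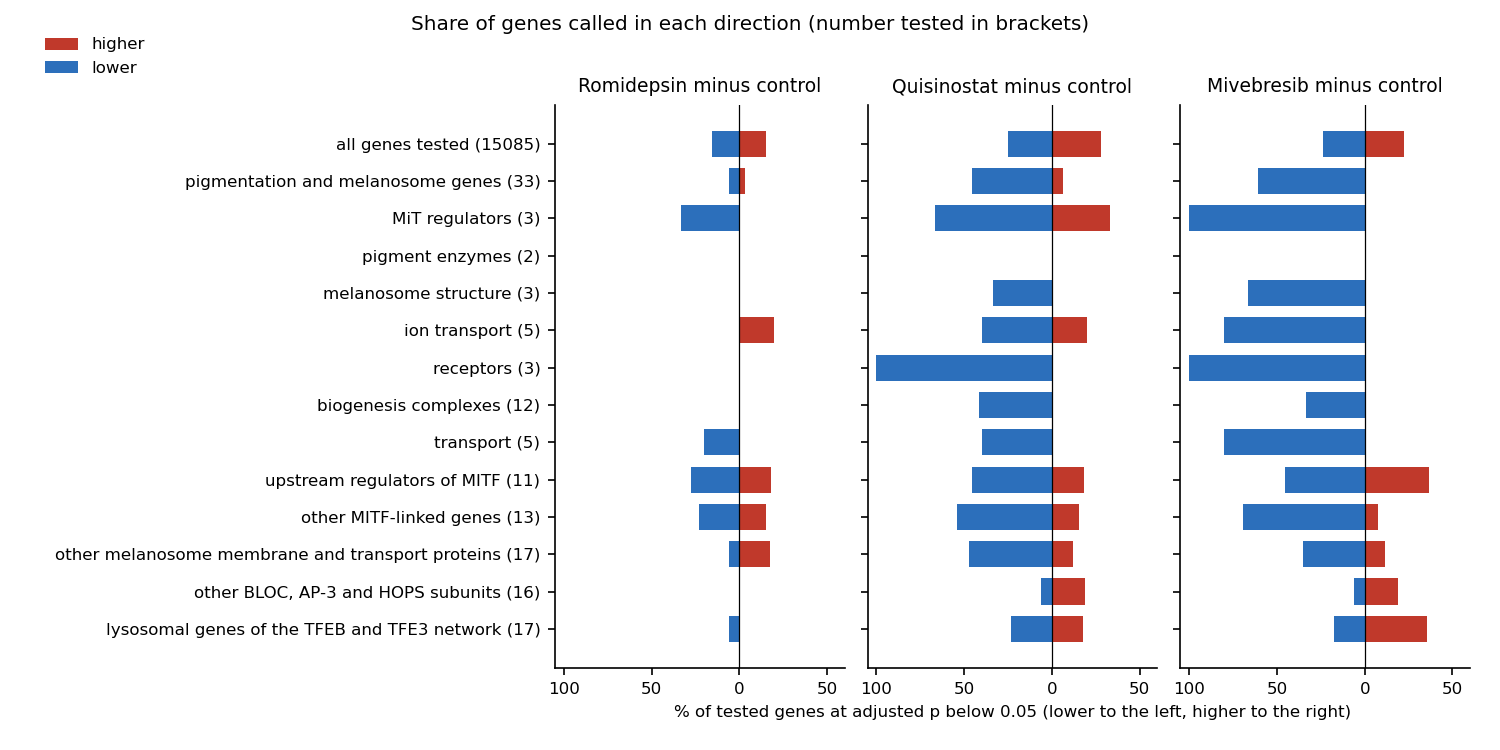
Percent of the tested genes of each list that were higher (red, to the right) or lower (blue, to the left) than the control at an edgeR adjusted p below 0.05, 1 panel per drug, with the number tested in brackets and all 15085 genes in the top bar. With mivebresib the bars of the MiT regulators and the receptors, 3 genes each, are wholly blue, and the pigment enzymes have no bar in any panel.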

How the data were processed

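Bulk mRNA of 8 MP38 libraries (2 wells in each of 4 groups) was analysed. Per the labels, a strand-specific library was sequenced in paired-end reads and the submitters' processing notes name hg38; the aligner, counter and annotation are not given in the sources used here. The authors deposited a table of raw read counts per gene symbol, which was used as it stood, and a log10 CPM table computed by the authors from those counts, used for one alternative with a pseudocount of 1 or 5. The deposited quantile-normalised table was not used. Groups followed the labels.

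Counts were fitted with edgeR 4.0.16 (R 4.3.3; TMM factors, filterByExpr, quasi-likelihood test) on all 8 libraries, and Benjamini-Hochberg adjustment ran over the 15085 genes tested of 35238. A gene was called at an adjusted p below 0.05. Library totals of 28483235 to 29359024 counts limit precision for low genes such as DCT and TYR. In simulated counts for the mivebresib comparison, over 14697 genes, 85.4% of 89 genes changed by 1 and 99.1% of 106 genes changed by 2 on the log2 scale were recovered. In the same counts 10 unchanged genes were called. The simulation gave all genes and libraries the same spread and changed few genes. It did not hold the wider spread of the real controls, so these shares need not apply to the real contrasts. Alternatives used DESeq2 1.42.0, limma 3.58.1, other scalings and filters, and each library left out. Lengths and overlaps came from GENCODE 29, and promoters from RefSeq. Genes past the threshold with any drug were named, with MITF, the tyrosinase family, PMEL, MLANA, TRPM1, MC1R and GPNMB in any case. From each other list, some of the genes with the largest change (up to 4 per drug) were named, with SOX10, PAX3, KIT, TUBB3 and overlapping genes. The members and lists were chosen with earlier results of these data known.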

Additional observations from a re-analysis of the deposited data

How the results depend on the processing

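Of the 40 member results called against the control, 0 changed direction under any alternative, and, leaving aside a further limit on the size of the change, 15 lost the call under at least 1. On that basis 15 of the 20 falls with mivebresib and 8 of the 15 with quisinostat kept the call. The rise of ATP7A with both HDAC inhibitors kept it too, and the romidepsin falls of TFE3 and RAB32 did not. Kept calls are those that held under every other alternative that tested the gene. The filter on a mean CPM of at least 5 left out TFEB and TRPM1, so their calls were not tested there. A limit of 1 on the log2 FC removes calls by its own construction, that of ATP7A among them. Low counts limit DCT, TYR and TRPM1. Among the calls against the control for TUBB3 and the genes of the other lists, 34 were lost under at least 1 alternative. The calls named for those lists above are printed without this check. The cause of the other shifts was not tested.

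Scaled by library size alone, romidepsin raised 4 members, with 12 genes of the other lists raised and 5 lowered; quisinostat raised 4 and lowered 9 with a median of -0.0457, and 28 genes of the other lists rose and 15 fell. The median was -0.146 for quisinostat against romidepsin and -0.581 for mivebresib against quisinostat, where 1 member was higher. PMEL and GPNMB with quisinostat turned to 0.192 and 0.158. With upper-quartile factors romidepsin raised 6 members, with 12 raised and 5 lowered in the other lists; quisinostat had a median of -0.118 and 16 lowered in the other lists, its median against romidepsin was -0.228, and 1 member was higher with mivebresib than with quisinostat. PMEL and GPNMB with quisinostat turned to 0.12 and 0.0865, and GPNMB with mivebresib to 0.00807.

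With a mean CPM of at least 5, romidepsin raised 4 members and lowered 4 genes of the other lists, and quisinostat raised 1 member with a median of -0.177 and 16 lowered in the other lists. The medians were -0.504 for mivebresib, -0.24 for quisinostat against romidepsin and -0.647 for mivebresib against romidepsin; 1 member was higher with quisinostat than with romidepsin and 1 with mivebresib than with quisinostat. PMEL and GPNMB with quisinostat turned to 0.0847 and 0.0513. Without a filter quisinostat raised 1 member and the median of mivebresib against romidepsin was -0.747. With the 4 libraries of each comparison alone, romidepsin lowered 0 members and 3 genes of the other lists, quisinostat raised 1 member and lowered 16 genes of the other lists, the quisinostat to romidepsin median was -0.313, and mivebresib left 3 members above romidepsin. DESeq2 gave 1 member raised by quisinostat and a quisinostat to romidepsin median of -0.296. With limma-voom PMEL with quisinostat turned to 0.00555.

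On the deposited log CPM with a pseudocount of 1 or 5, romidepsin raised 5 members and lowered 1, with 12 raised and 5 lowered in the other lists. Quisinostat raised 4 and lowered 9 with a median of -0.0346 at both pseudocounts, and in the other lists 28 rose and 15 or 16 fell. The medians were -0.502 or -0.467 for mivebresib, -0.143 or -0.137 for quisinostat against romidepsin, and -0.71 or -0.471 for mivebresib against romidepsin. Mivebresib against quisinostat had a median of -0.553 at a pseudocount of 1, and 1 member was higher at both. PMEL with quisinostat turned to 0.206 or 0.204, GPNMB with quisinostat to 0.177 or 0.176, and GPNMB with mivebresib to 0.00672 or 0.00663.

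With a log2 FC beyond 1 as well, romidepsin raised 0 and lowered 0 members, quisinostat raised 0 and lowered 3, and mivebresib lowered 11; beyond 1.5 these were 0 and 0, 0 and 1, and 7. Beyond 1, quisinostat against romidepsin left 0 higher and 2 lower, mivebresib against quisinostat 0 and 7, and mivebresib against romidepsin 0 and 13; beyond 1.5 these were 0 and 1, 0 and 4, and 0 and 7. By the longest transcript 2 members lay below 1 CPM per kilobase in the control, against 4 by merged exons.

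Leaving out 1 library at a time, romidepsin raised 1 to 8 members and lowered 0 to 6 (0 without its first library), with 3 to 21 raised and 3 to 16 lowered in the other lists, and the highest of each came without the second control library. Quisinostat raised 1 to 3 with a median of -0.355 to -0.255, and 9 to 21 rose and 16 to 26 fell in the other lists. Mivebresib raised 0 to 2, the latter without the first control library, with a median of -0.75 to -0.468. Quisinostat against romidepsin had a median of -0.3 to -0.249 with 0 to 3 members higher, mivebresib against quisinostat 1 to 7 higher, the lowest without the first quisinostat library, and mivebresib against romidepsin 1 to 3 higher with a median of -0.851 to -0.717. Changes of sign came between the first and second control library left out. With romidepsin TYR ran from -0.11 to 0.818, TYRP1 from -0.14 to 0.299, PMEL from -0.0577 to 0.403 and GPNMB from -0.153 to 0.379. With quisinostat TYR ran from -0.0957 to 0.854, PMEL from -0.237 to 0.245 and GPNMB from -0.3 to 0.253. With mivebresib TYRP1 ran from -0.401 to 0.0602 and GPNMB from -0.291 to 0.263.

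Libraries of the same number showed only weak correlations of their deviations, of both signs (-0.162 to 0.158 between groups). With 2 wells per group this cannot exclude that wells of the same number were handled together. With the replicate number as a block, quisinostat lowered 16 members, mivebresib lowered 20, and 3 members were higher with mivebresib than with romidepsin against 1 without it.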
